A study of Homo sapiens with 2 samples.

Results

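HLA class I heavy chains and beta-2 microglobulin, the light chain they pair with, were described on 2 expression arrays of the kidney cancer line 786-O and a line derived from it. The members were the probe sets that the platform annotation paired with HLA-B, HLA-C, HLA-E, HLA-F, HLA-G or B2M alone. These were 20 probe sets of 6 genes, out of 41091 single-gene probe sets of 19775 genes. The annotation table used here paired 0 probe sets with several HLA class I genes, so no group of that kind could be described. The 786-VHL array held RNA of cells derived from 786-O that carry a functional VHL allele, and the 786-O array RNA of the renal cell carcinoma line itself, whose VHL is mutated. VHL encodes the part of a ubiquitin ligase that recognises the HIF alpha subunits. The series title refers to EMCV, but the labels give no infection or other treatment of either sample. How the allele was introduced, which promoter drives it and whether 786-VHL is a clone or a pool is not stated by the labels. There was 1 array per line, so no value has a replicate, an error or a test, and every reading is only as precise as a single array.

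Class I molecules carry peptides from inside the cell to its surface, where CD8 T cells read them. A heavy chain encoded in the major histocompatibility complex on chromosome 6 folds in the endoplasmic reticulum together with beta-2 microglobulin, which is encoded on chromosome 15, and with a peptide. HLA-B and HLA-C are classical, highly polymorphic heavy chains. HLA-E presents leader peptides of other class I chains to receptors of natural killer cells, HLA-F is a non-classical chain with a less settled role, and HLA-G is best known from the trophoblast of the placenta. Heavy chain genes share long stretches of nearly identical sequence. On this array design the ending _x_at marks probe sets with probes that also match transcripts of other genes, _s_at marks probe sets that match several transcripts, and a plain _at ending carries no such mark.

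Promoter sequences are shown because the heavy chain probe sets lay in the same direction on the arrays, and that of B2M is printed beside them for comparison. RefSeq windows (GRCh38.p14) from 250 bases before to 50 bases after the start were matched for 5 of the 6 genes. For HLA-G, with 3 windows, the one most like HLA-B was taken. The 150 bases from 185 to 36 before the start are printed 5′ to 3′ on the gene's strand, in lower case, with matches to 5 motifs in capitals. The motifs, searched on both strands, were the kB consensus bound by NF-kB, 2 spellings of the interferon response core (GAANNGAAA and GAAANNGAA), the Y box CCAAT and the core TGACG of the cyclic AMP response element.
HLA-B, chr6:31357215-31357364, minus strand: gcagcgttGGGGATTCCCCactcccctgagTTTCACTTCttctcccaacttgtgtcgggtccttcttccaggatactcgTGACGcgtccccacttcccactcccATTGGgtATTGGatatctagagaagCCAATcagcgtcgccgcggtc
HLA-C, chr6:31272128-31272277, minus strand: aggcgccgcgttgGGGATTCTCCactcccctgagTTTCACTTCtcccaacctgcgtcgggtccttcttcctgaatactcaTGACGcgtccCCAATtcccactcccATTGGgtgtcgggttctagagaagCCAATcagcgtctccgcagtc
HLA-F, chr6:29723249-29723398, plus strand: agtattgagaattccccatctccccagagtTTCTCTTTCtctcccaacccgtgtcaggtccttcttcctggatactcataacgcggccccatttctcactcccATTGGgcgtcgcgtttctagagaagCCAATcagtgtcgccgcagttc
HLA-G, chr6:29827640-29827789, plus strand: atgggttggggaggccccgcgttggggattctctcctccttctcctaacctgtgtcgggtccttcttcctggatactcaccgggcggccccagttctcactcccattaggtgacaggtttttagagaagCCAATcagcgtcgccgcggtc
B2M, chr15:44711332-44711481, plus strand: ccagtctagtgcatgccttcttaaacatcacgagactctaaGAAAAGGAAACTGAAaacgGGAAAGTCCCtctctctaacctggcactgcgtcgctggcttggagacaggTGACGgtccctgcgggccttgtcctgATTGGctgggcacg

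Over the 250 bases before the start HLA-B and HLA-C were 89% identical, HLA-B and HLA-F 80.4%, HLA-B and HLA-G 73.2%, and HLA-B and B2M 49.5%. The kB consensus was in the windows of HLA-B, HLA-C and B2M, and in 5.91% of all 35116 promoter windows of this length. In HLA-B and B2M, motif matches overlapped each other. The first interferon core was in HLA-B and HLA-C (7.66% of all windows) and the second in HLA-F and B2M (8.11%). TGACG was in HLA-B, HLA-C and B2M (24.6%), and CCAAT in all 5 (34.6%). In the HLA-G window, CCAAT was the only one of these motifs found. That window was picked from 3 for its likeness to HLA-B, and motifs in the others were not described. HLA-F had neither the kB consensus nor TGACG. By these motifs HLA-B shared more kinds with B2M than with HLA-F or the HLA-G window taken. A match is a description of the letters, and the arrays did not measure binding.

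All 16 heavy chain probe sets above the floor were lower on the 786-VHL array, and 13 of them by at least 1.5-fold. None was 2-fold apart. Of all 28596 measured probe sets 7.64% were at least 1.5-fold lower and 5.94% higher, 2.57% were at least 2-fold lower and 1.33% higher. Of the 2913 measured probe sets ending in _x_at, 5.84% were at least 1.5-fold lower. By any size, 43.9% of all measured probe sets and 41.7% of those ending in _x_at were lower on the 786-VHL array. A probe set is called measured where its higher value passed the median of all values, an intensity of 22.3 in arbitrary units. Differences are log2(786-VHL + 16) minus log2(786-O + 16), and folds are on the same scale. In RNA of a whole culture, fewer cells with a transcript and less of it per cell cannot be told apart. The median difference of the 18 measured members was -0.64, against 0.04 for all measured probe sets. By their ending, the 15 probe sets named _x_at may each read transcripts of several class I genes, so they are not taken as 15 independent readings. How far they do so was not measured here.

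**Figure D1:**
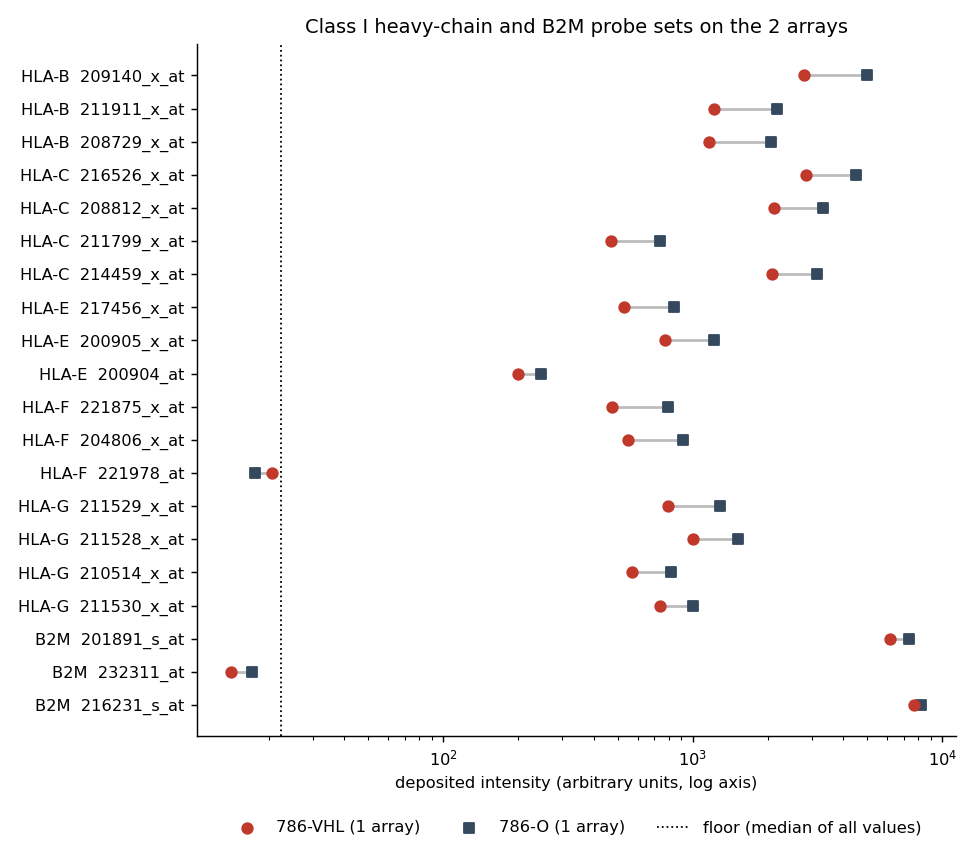
Deposited intensity (arbitrary units, log axis) of each of the 20 member probe sets on the 786-VHL array (circles) and the 786-O array (squares), with a dotted line at the floor of 22.3. All 15 heavy chain probe sets ending in _x_at lie lower on the 786-VHL array, while HLA-F 221978_at and B2M 232311_at lie below the floor on both.

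HLA-B had the largest differences among the members. Its probe set 209140_x_at read 2798 on the 786-VHL array and 5005 on the 786-O array. Probe set 211911_x_at read 1211 on the 786-VHL array and 2165 on the 786-O array, and 208729_x_at read 1165 on the 786-VHL array and 2054 on the 786-O array. The 786-VHL array was the lower on all 3, by 1.78-fold, 1.78-fold and 1.75-fold, and the log2 differences of -0.84, -0.83 and -0.81 spanned only 0.025. Across the 6436 genes with several measured probe sets, the pooled SD between probe sets of one gene was 0.328. An SD and a span of 3 values are unlike measures, so they are not compared here.

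HLA-C, which lies next to HLA-B on chromosome 6 and is a major ligand of killer immunoglobulin-like receptors, was lower on all 4 of its probe sets. Probe set 216526_x_at read 2846 on the 786-VHL array and 4493 on the 786-O array, a log2 difference of -0.66. Probe sets 208812_x_at and 214459_x_at read 2119 and 2068 on the 786-VHL array, against 3315 and 3129 on the 786-O array, with differences of -0.64 and -0.59. The dimmest, 211799_x_at, read 469 on the 786-VHL array and 738 on the 786-O array, a difference of -0.64. The 4 values lay within 0.0623 of each other although the signals of the probe sets differed widely. None of them reached the differences of HLA-B. All probe sets of both genes end in _x_at, so these data cannot tell HLA-B transcripts from those of HLA-C. The differences of all 15 heavy chain probe sets ending in _x_at had an SD of 0.11.

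HLA-E was read by 2 probe sets ending in _x_at and by one with a plain ending, and they did not give the same size. Probe set 200905_x_at read 775 on the 786-VHL array and 1219 on the 786-O array, and 217456_x_at read 528 on the 786-VHL array and 844 on the 786-O array, with differences of -0.64 and -0.66. Probe set 200904_at, the one without the mark for cross-hybridisation, read 199.8 on the 786-VHL array and 246 on the 786-O array. It was lower by 1.21-fold, a difference of -0.28 and so short of the 1.5-fold limit. It was the only measured heavy chain probe set without the _x_at ending, and the 3 HLA-E differences spanned 0.381. Whether cross-hybridisation accounts for the larger differences of the other probe sets was not tested.

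HLA-F was measured on 2 of its 3 probe sets, both ending in _x_at. Probe sets 204806_x_at and 221875_x_at read 551 and 474 on the 786-VHL array, against 911 and 797 on the 786-O array, with differences of -0.71 and -0.73. Probe set 221978_at, with a plain ending, read 20.6 on the 786-VHL array and 17.6 on the 786-O array, below the floor on both, so it gave no usable difference. HLA-F had signal above the floor on these arrays only where probes may also match other class I transcripts. The antisense transcript HLA-F-AS1 had 192.6 on the 786-VHL array and 143.9 on the 786-O array on 222279_at, a difference of 0.38 in the other direction, and its other probe set lay below the floor.

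HLA-G had 4 probe sets, all ending in _x_at. Probe set 211528_x_at read 998 on the 786-VHL array and 1521 on the 786-O array, and 211529_x_at read 794 on the 786-VHL array and 1285 on the 786-O array, with differences of -0.60 and -0.68. Probe sets 210514_x_at and 211530_x_at read 571 and 736 on the 786-VHL array, against 820 and 1005 on the 786-O array, with differences of -0.51 and -0.44, both short of 1.5-fold. These readings spanned 0.241, more than those of HLA-B or HLA-C. No probe set of HLA-G without the mark was on the array, so these data cannot tell HLA-G transcripts from those of other class I genes. HLA-J, a class I pseudogene outside the member list, was read by 217436_x_at at 462 on the 786-VHL array and 851 on the 786-O array. Its difference of -0.86 was below those of all members.

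**Figure D2:**
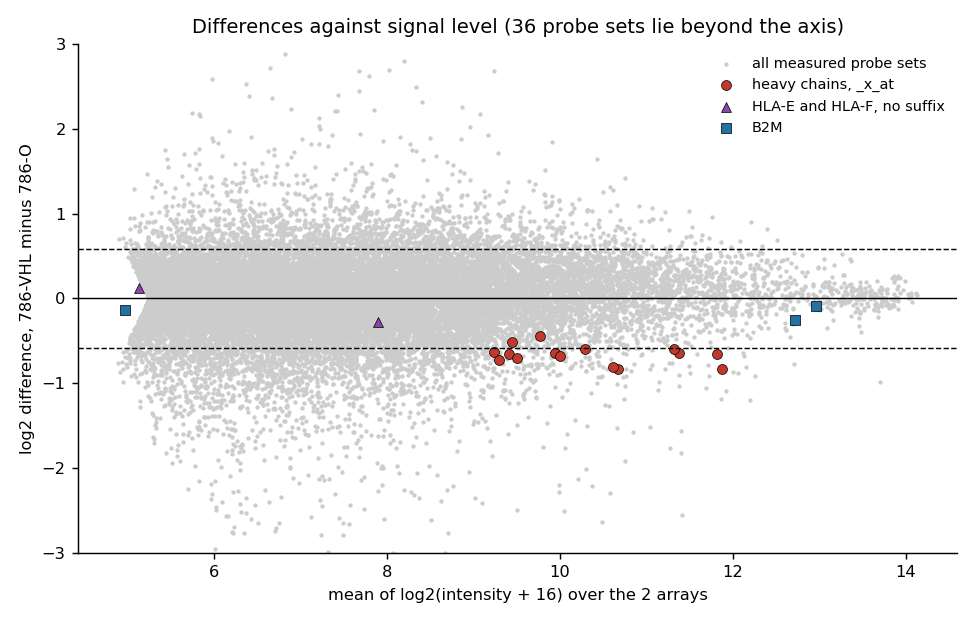
Log2 difference, 786-VHL minus 786-O, against the mean of log2(intensity + 16) for all measured probe sets (grey) and the members, with dashed lines at 1.5-fold. The heavy chain probe sets ending in _x_at form a band from -0.84 to -0.44, HLA-E 200904_at lies at -0.28, and the B2M probe sets above the floor lie at -0.25 and -0.09 where the spread of all probe sets is narrow; 36 probe sets lie beyond the axis.

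B2M, the light chain needed for class I to reach the surface, had the smallest differences among the measured members. Probe set 216231_s_at read 7687 on the 786-VHL array and 8209 on the 786-O array, and 201891_s_at read 6149 on the 786-VHL array and 7319 on the 786-O array. Both were lower on the 786-VHL array, by -0.09 and -0.25 on the log2 scale, and neither reached 1.5-fold. The third, 232311_at, read 14.1 on the 786-VHL array and 17.1 on the 786-O array, below the floor on both. The median difference of each heavy chain was lower than that of B2M, by 0.38 for HLA-G to 0.66 for HLA-B in size. These heavy chain medians were all set by probe sets ending in _x_at. The measured heavy chain probe set without that mark, HLA-E 200904_at, was at -0.28, close to B2M 201891_s_at at -0.25.

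At the signal level of B2M, differences were smaller in general. Both measured B2M probe sets were in the brightest 1% of measured probe sets, where 0.702% of 285 were at least 1.5-fold lower and none 1.5-fold higher. Within 0.5 log2 units of the mean of B2M 216231_s_at, the differences of 184 probe sets had an SD of 0.201, and around 201891_s_at those of 209 probe sets had an SD of 0.239. At the level of HLA-B 209140_x_at the SD of 460 probe sets was 0.373, and 4.78% were at least 1.5-fold lower. The part that signal level plays in the smaller B2M differences was not tested. Of the 8870 measured probe sets with a mean at or above that of the dimmest measured member, 7.86% were at least 1.5-fold lower and 8.05% at least 1.5-fold higher.

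Genes that prepare and load peptides for class I did not lie with the heavy chains as a group. Of 9 measured genes of peptide loading and transport, 2 were at least 1.5-fold lower on the 786-VHL array and 1 higher, with a median difference of -0.11 against 0.05 for all 13291 measured genes, of which 6.55% were 1.5-fold lower and 6.25% higher. TAP2, one subunit of the transporter that brings peptides into the endoplasmic reticulum, read 194.4 on the 786-VHL array and 331 on the 786-O array on its brightest probe set, a difference of -0.72. Its other measured probe sets were at -0.51 and -0.20. TAP1, the partner subunit, read 403 on the 786-VHL array and 364 on the 786-O array, a difference of 0.14. The transporter's 2 subunits thus differed in opposite directions, of which that of TAP1 was small.

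Tapasin, the TAPBP product that holds class I at the transporter, depended on the probe set. TAPBP 208829_at read 956 on the 786-VHL array and 1069 on the 786-O array, a difference of -0.16, whereas 1555565_s_at read 101.5 on the 786-VHL array and 313 on the 786-O array, a difference of -1.49. The peptide-trimming enzymes ERAP1 and ERAP2 lay on opposite sides. ERAP2 had 751 on the 786-VHL array and 449 on the 786-O array, and its 4 measured probe sets lay between 0.64 and 0.94. ERAP1 had 78.8 on the 786-VHL array and 157 on the 786-O array on its brightest probe set, a difference of -0.87, but its other measured probe set was at -0.07.

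All 4 genes read in the immunoproteasome list were higher on the 786-VHL array, with a median difference of 0.32. Of all 13291 measured genes only 41.8% were lower there, with a median difference of 0.05, so a shared direction of 4 genes says little. PSMB9, a catalytic subunit of the immunoproteasome that is induced by interferon gamma, read 557 on the 786-VHL array and 154.6 on the 786-O array, a difference of 1.75. It was the only one of the 4 past 1.5-fold, while PSMB10, PSMB8 and PSME1 were at 0.38, 0.26 and 0.18. PSME2 was not analysed here.

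**Figure D3:**
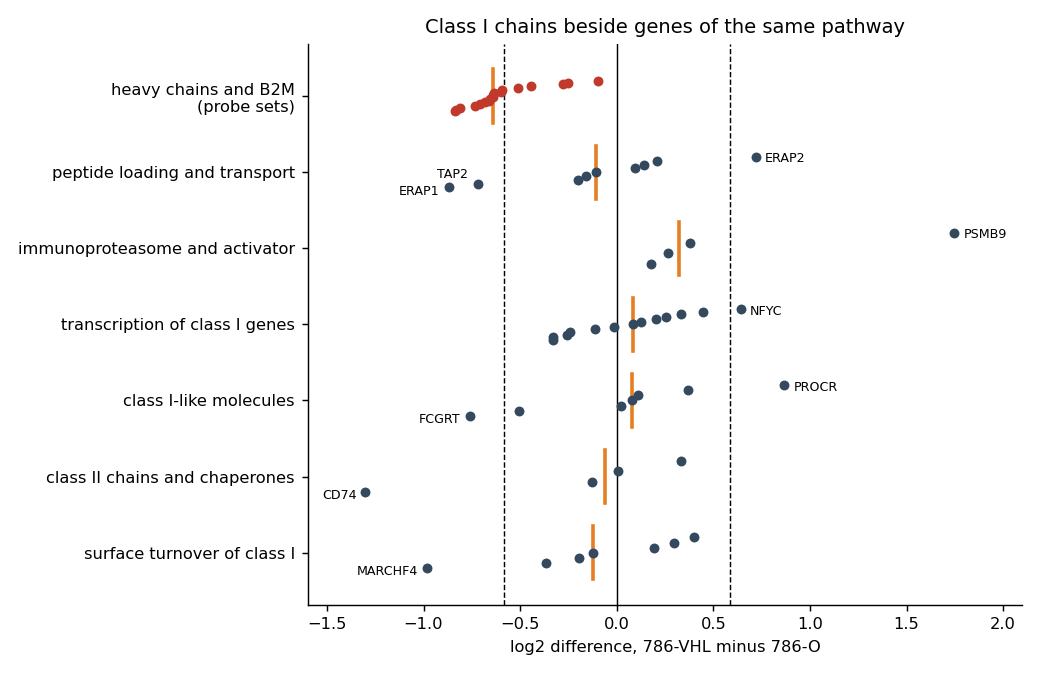
Log2 difference, 786-VHL minus 786-O, of the 18 measured member probe sets (top row) and of the measured genes of 6 lists, with the median of each row as an orange bar and dashed lines at 1.5-fold. The members lie between -0.84 and -0.09, whereas each list has points on both sides of 0 except the immunoproteasome list, which lies above 0.

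Regulators of class I transcription showed mostly small differences. Of 13 measured genes none was 1.5-fold lower and 1 was 1.5-fold higher, with a median of 0.09. NLRC5, the transactivator of class I promoters, read 60.5 on the 786-VHL array and 48.2 on the 786-O array, a difference of 0.25. IRF1, an interferon-induced factor that binds the interferon response element, read 219 on the 786-VHL array and 156.5 on the 786-O array, a difference of 0.45. The gene past 1.5-fold was NFYC, a subunit of the factor that binds CCAAT, at 304 on the 786-VHL array and 189.3 on the 786-O array, a difference of 0.64. That probe set and another NFYC probe set at 0.67 end in _x_at. The other measured NFYC probe sets lay between 0.22 and 0.55, short of 1.5-fold. The list lay on both sides of 0, with 7 genes higher and 6 lower on the 786-VHL array. Among the lower were NFYB, another subunit of the CCAAT-binding factor, at -0.33, CREB1 at -0.33 and the NF-kB subunit gene RELA at -0.26.

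Class I-like molecules had 7 measured genes of 12 on the array, 1 past 1.5-fold in each direction, and a median of 0.08. FCGRT, the heavy chain of the neonatal Fc receptor, which also pairs with beta-2 microglobulin, read 51.0 on the 786-VHL array and 97.5 on the 786-O array, a difference of -0.76. PROCR, which encodes the endothelial protein C receptor, read 427 on the 786-VHL array and 227 on the 786-O array, a difference of 0.87. Class II chains and chaperones were mostly below the floor, with 4 of 11 genes measured. CD74, the invariant chain that guides class II molecules, was the one past 2-fold (2.18% of measured genes were 2-fold lower and 1.54% higher), at 49.3 on the 786-VHL array and 144.9 on the 786-O array, a difference of -1.30, while another of its probe sets was at 0.12. Of 7 measured genes in the list for surface turnover, MARCHF4, a membrane ubiquitin ligase that can lower surface class I, was alone past 1.5-fold, at 57.6 on the 786-VHL array and 129.1 on the 786-O array, a difference of -0.98.

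Genes next to the heavy chains on chromosome 6 did not share their difference as a group. Taking 10 measured genes on either side of each heavy chain, and each gene once, there were 51 neighbours outside the member list with a median difference of -0.03, 26 lower and 25 higher on the 786-VHL array. At least 1.5-fold lower were 3 of them, including HLA-J, and 1 was 1.5-fold higher. Past 2-fold were TNF, which encodes an inflammatory cytokine, at 24.1 on the 786-VHL array and 89.0 on the 786-O array, and ZSCAN31, a zinc finger gene, at 60.0 on the 786-VHL array and 17.7, below the floor, on the 786-O array. Around HLA-B alone, 12 of 19 neighbours were lower and 7 higher, with a median of -0.06. TCF19, the measured gene on the far side of HLA-C, differed by 0.07. MICA-AS1, the measured gene next to HLA-B on the other side, differed by -0.09. MICA, the measured gene after it, read 371 on the 786-VHL array and 533 on the 786-O array. Its difference was -0.50, short of 1.5-fold. Around B2M on chromosome 15 the 20 neighbours had a median of 0.06, with 1 at least 1.5-fold lower and 4 at least 1.5-fold higher, and MYEF2 was the one past 2-fold, at -1.29.

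**Figure D4:**
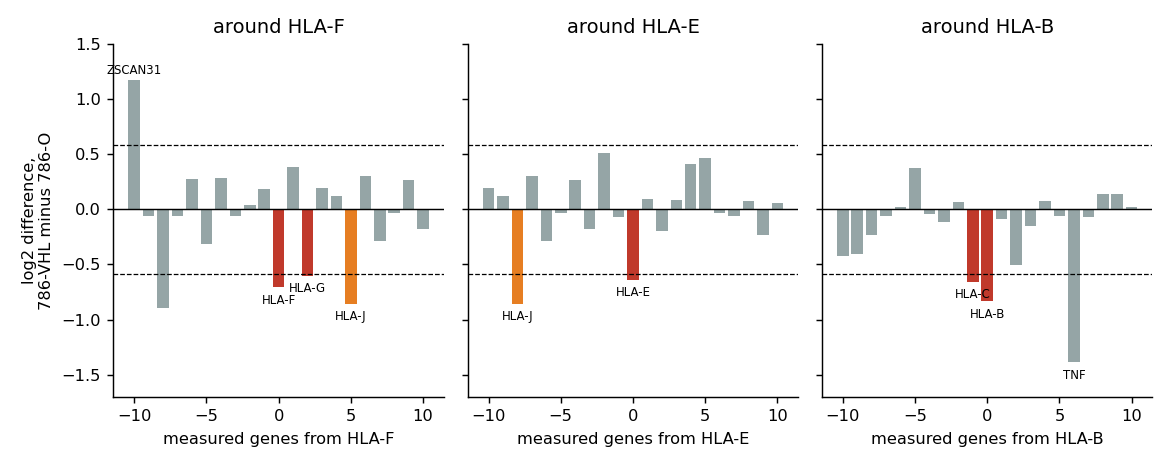
Log2 difference, 786-VHL minus 786-O, of the measured genes on either side of HLA-F, HLA-E and HLA-B in chromosome order, with members in red, HLA-J in orange, other genes in grey and dashed lines at 1.5-fold. The heavy chains stand below 0 among neighbours that lie on both sides of it, and TNF and ZSCAN31 are the neighbours past 2-fold.

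By the distance between log2 values on the 2 arrays, the measured genes nearest to HLA-B were HLA-C, UBE2C, YWHAB and CD44, at 0.157 to 0.223 log2 units. UBE2C differed by -1.09, CD44, a hyaluronan receptor, by -0.91, and YWHAB, a 14-3-3 protein gene, by -0.59. Nearest to B2M were PFN1, H2AZ1, FTH1P5 and NONO, with differences between -0.07 and 0.02. With 2 arrays such likeness says only that level and difference were close.

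The 2 arrays had medians of 22.58 for 786-VHL and 21.97 for 786-O. Of 10 genes in the marker list for a renal epithelial line 8 were measured, among them PAX8, a kidney transcription factor, at 1068 on the 786-VHL array and 1521 on the 786-O array. The proximal tubule receptors CUBN and LRP2 were below the floor on both. Of 5 leukocyte markers 1 was measured, CD53 at 31.0 on the 786-VHL array and 28.2 on the 786-O array, and PTPRC, their defining marker, was below the floor on both. Markers of endothelium were measured in 2 of 4 genes, both under 30, and of fibroblasts in 1 of 4. VHL itself was read at 15.96 on the 786-VHL array and 28.85 on the 786-O array on its brighter probe set, and was thus 1.40-fold lower on the array labelled as carrying the functional allele, where it lay below the floor. Its other probe set lay below the floor on both arrays. Readings this near the floor, from probes that may lie outside the introduced sequence, do not check the labels, and no other check of them was made here.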

How the data were processed

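Total RNA of 786-VHL and 786-O, 1 sample each, was labelled with biotin and read on expression arrays. The authors deposited 1 linear intensity per probe set and array, 54613 in all, and R 2.10 is the only tool in the submitters' processing notes. Background correction, normalization and probe summary are not given there or in the labels, and any of them could compress bright signals. Genes were named from the platform annotation, with current symbols by Entrez number. For genes in lists, the probe set of that gene alone whose mean log2 value was highest was used. Differences used a pseudocount of 16. With 1 array per line no test was possible, so sizes of 1.5-fold and 2-fold were used, and shares of all measured probe sets or genes are given beside the counts. Members, lists and size limits were chosen with earlier results of these data known. Named from each list were TAP1, TAPBP, NLRC5 and IRF1 and up to 4 measured genes past 1.5-fold. HLA-J, HLA-F-AS1, TCF19, MICA-AS1, MICA, NFYB, CREB1, RELA, PSMB8, PSMB10, PSME1 and the marker genes were named after their values were seen. Chromosome order came from GRCh38.p14. Python 3.11.15, numpy 2.4.6, pandas 2.3.3, biopython 1.88 and matplotlib 3.10.9 were used.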

Additional observations from a re-analysis of the deposited data

How the results depend on the processing

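No paired analysis was possible because there was a single array of either line, which also left no replicate to leave out. Of 71 values under the alternatives, 68 moved by less than the SD between probe sets for one gene (counts: by less than 1.5 times), 3 by more, and none changed sign. The 3 came from keeping only probe sets without _s_at, _x_at and _a_at. There 1 measured member probe set was left, HLA-E 200904_at, so 0 members were at least 1.5-fold lower, and the member median and the HLA-E value were both -0.28. HLA-B, HLA-C, HLA-F, HLA-G and B2M then had no measured probe set. Under the other alternatives (pseudocounts of 1 and 64, quantile normalization, the intensity trend removed, a floor at the 75th percentile, no floor) 11 to 14 members were at least 1.5-fold lower and none 2-fold apart. The differences of HLA-B over all its alternatives lay between -0.90 and -0.82 and those of B2M between -0.17 and -0.09. Changing or dropping the floor could not move the value of any gene's brightest probe set, since these lay well above it. Pseudocounts of 1 and 64 are small beside those signals and could move their values only a little. The 68 values thus include many that their settings could hardly move. The SD of 0.328 is larger than the B2M differences, so staying within it says little for B2M. The planned median over probe sets annotated to several HLA class I genes was not run, since there were 0.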
